A study of Mus musculus with 6 samples.

Results

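The mRNA levels of carboxylesterases were compared between parental CT26 cells and 2 derived lines that resisted immune checkpoint blockade (ICB), B04 and B64. The 9 genes were matched by symbol, namely Ces2a, Ces2b, Ces2c, Ces2e, Ces2f, Ces2g, Ces1d, Ces1f and Ces1g, so 9 of the 20 mouse carboxylesterase genes among the 53801 genes listed. Ces2g was chosen by its higher normalized counts in B04, and the question was whether that rise extended to its paralogues. The values of Ces2g in comparisons that use the B04 libraries are therefore a description, with no test. CT26 is a colon carcinoma line of BALB/c mice. Parental here means bulk cells recovered from engrafted tumors and grown again, while B04 and B64 are each a line grown from 1 cell of a tumor, so each stands for 1 clone. Each line had 2 libraries, replicates A and B, from untreated cells, and p-values measure only the spread between these libraries. The sample titles speak of tumors, whereas the growth protocol and the study's methods speak of cultured cells.

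Library totals ranged from 19409204 to 23472012 expected counts, so the 3 counts taken as the floor for a library correspond to 0.128 to 0.155 CPM. Fragment length, estimated from how far RSEM shortened each gene to obtain an effective length, measured 271.8 to 277.3 bases in the parental libraries and B04 replicate A, and 220.8 to 246.2 bases in B04 replicate B and both B64 libraries. The B64 line and fragment length cannot be told apart in the comparison with the parental line. Of the defining epithelial markers, Krt18 was present at 12.31 to 22.44 TPM, a transcript level scaled by gene length and library total, whereas Cdh1 and Epcam were at most 0.06 TPM. Endothelial markers summed to at most 0.1 TPM and the leukocyte gene Ptprc was at most 0.01 TPM in every library.

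Carboxylesterases are enzymes of the endoplasmic reticulum that cut ester bonds in drugs, other foreign compounds and stored lipids. They are best known from the liver and the intestine, where they activate prodrugs and mobilize triacylglycerol. In the mouse the genes have multiplied by tandem duplication. In GENCODE M21 (GRCm38) the Ces2, Ces3 and Ces4 genes form a cluster of 11 genes at chr8:104734003-105150109, transcribed on the plus strand, and the Ces1 genes and Ces5a form a cluster of 9 genes at chr8:93020214-93535830 on the minus strand. Ces2g (ENSMUSG00000031877) lies at chr8:104961718-104969537, and Ces2f ends 1.7 kb before it.

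The sequences upstream of Ces2g and of 3 other members are shown because these members differed in level, as described below. Ces2f is the adjacent gene, Ces2c has the upstream sequence most like that of Ces2g, and Ces1g had the highest carboxylesterase transcript level in the parental line. Each is the 250 bases before the start site, from RefSeq (GRCm38.p6), with motif matches in capitals:
Ces2g (chr8:104961468-104961717, plus strand): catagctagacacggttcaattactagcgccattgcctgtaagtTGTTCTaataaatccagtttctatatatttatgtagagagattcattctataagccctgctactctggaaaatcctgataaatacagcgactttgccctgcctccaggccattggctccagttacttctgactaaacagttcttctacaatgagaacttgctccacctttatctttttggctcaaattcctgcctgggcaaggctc
Ces2c (chr8:104846818-104847067, plus strand): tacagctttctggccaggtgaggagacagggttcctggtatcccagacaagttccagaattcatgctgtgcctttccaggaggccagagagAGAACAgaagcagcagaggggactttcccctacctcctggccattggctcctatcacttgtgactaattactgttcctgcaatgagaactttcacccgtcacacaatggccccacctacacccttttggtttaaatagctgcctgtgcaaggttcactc
Ces2f (chr8:104947106-104947355, plus strand): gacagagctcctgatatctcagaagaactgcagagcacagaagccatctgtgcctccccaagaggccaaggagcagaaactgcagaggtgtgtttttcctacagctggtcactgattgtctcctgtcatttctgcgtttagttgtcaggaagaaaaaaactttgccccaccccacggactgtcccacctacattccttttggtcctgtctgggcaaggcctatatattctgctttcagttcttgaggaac
Ces1g (chr8:93337210-93337459, minus strand): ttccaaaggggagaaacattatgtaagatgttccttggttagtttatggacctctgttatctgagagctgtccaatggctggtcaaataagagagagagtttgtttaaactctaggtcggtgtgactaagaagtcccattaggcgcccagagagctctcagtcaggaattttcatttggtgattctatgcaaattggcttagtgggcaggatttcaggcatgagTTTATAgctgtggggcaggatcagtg

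The motifs searched on both strands were TGTTCT (the core of glucocorticoid response elements), AGGTCA (bound by many nuclear receptors), TGACNNNGC (the core of antioxidant response elements), CAAAGTCCA (an HNF4 site) and TATAAA (the TATA box). The windows searched ran from 250 bases before to 50 after the start site, and no matches overlapped in the windows shown. The Ces2g window held 1 TGTTCT, at position -206 from the start site, and the Ces2c window held 1 on the opposite strand at position -159. The letters TGTTCT were found in 6233 of 32851 mouse promoter windows. The Ces1g window held TATAAA on the opposite strand at position -26, and TATAAA was found in 13.6% of all windows. The Ces2f window held none of the 5 motifs. AGGTCA (16.3% of all windows), TGACNNNGC (12.4%) and CAAAGTCCA (0.5%) were not in any of the 4 windows shown. Over aligned bases the Ces2g window was 68.5% identical to that of Ces2c, 57.5% to that of Ces2f and 51.5% to that of Ces1g. RefSeq windows were found for 6 of the 9 members, with none for Ces1d, Ces1f and Ces2b.

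Ces2g encodes a carboxylesterase of the Ces2 subfamily. Its counts were 15 and 18 in parental cells, 405 and 397 in B04 cells, and 21 and 28 in B64 cells. After scaling by size factors these were 14.3 and 16.8 normalized counts in the parental line, 369 and 404 in B04, and 23.8 and 29.4 in B64. Both B04 libraries stood far above the other 4, and no groups overlapped. The normalized level in B04 was 24.8-fold that of the parental line (log2 fold change 4.63, SE 0.34) and 14.5-fold that of B64. Per length, the level was 0.30 ± 0.02 TPM in the parental line, 7.93 ± 0.54 in B04 and 0.54 ± 0.06 in B64 (SD, n = 2). By TPM, Ces2g ranked 12443 and 12286 among all genes in parental cells and 8180 and 7978 in B04 cells. Thus Ces2g in B04 was above 1 TPM, a level that 10970 to 11208 genes reached per library.

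The smaller difference of Ces2g between B64 and the parental line did not pass the test. Normalized counts in B64 were 1.71-fold those of the parental line (95% interval 1.0 to 2.93, DESeq2 adjusted p = 0.192). All B64 libraries were above all parental libraries, but the share of all genes without overlap between 2 lines was not computed. The comparison of B64 with the parental line shares the parental libraries that took part in the choice of Ces2g. The order of levels was therefore B04, then B64 and the parental line, the last 2 not separated by the test.

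**Figure D1:**
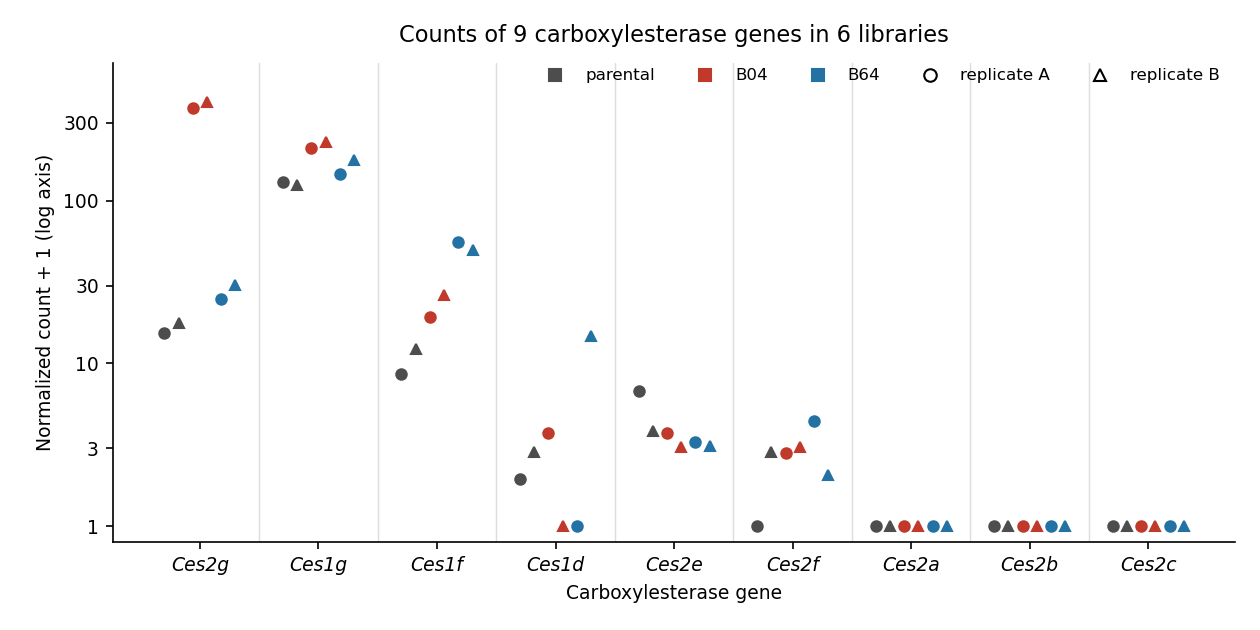
Normalized count plus 1 (log axis) of the 9 carboxylesterase genes in each library, colored by line, with circles for replicate A and triangles for replicate B. Ces2g stands apart in B04 (369 and 404 normalized counts), Ces1f is highest in B64, and Ces2a, Ces2b and Ces2c have no counts.

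The other Ces2 genes were at or close to the floor in all lines. Ces2a, Ces2b and Ces2c had 0 counts in all 6 libraries, which allows up to 3 counts in each. These genes encode esterases of intestine and liver. Ces2e had 6 and 3 counts in the parental line, 3 and 2 in B04, and 2 and 2 in B64. Ces2f had 0 and 2 counts in the parental line, 2 and 2 in B04, and 3 and 1 in B64. Thus no change of these 5 genes was detectable at this depth, and a level of a few counts per library cannot be distinguished from absence. Neither Ces2e nor Ces2f carried an adjusted p.

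The paralogues most similar to Ces2g in sequence were not the ones with transcripts. The coding sequence of Ces2g (1683 bases, 560 codons) was 86.3% identical over aligned bases to that of Ces2b, 85.3% to Ces2c, 82.9% to Ces2e, 81.6% to Ces2a and 80.5% to Ces2f. The 6 other Ces2 genes with a coding sequence, Ces2h included, were 78.4% to 86.3% identical to Ces2g, and the highest count of any of them in a library was 6. The 12 Ces1, Ces3, Ces4 and Ces5 genes were 59.5% to 63.4% identical, and among these was Ces1g with up to 230 counts.

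The similarity of paralogues bears on how reads were assigned, since RSEM divides reads that match several genes. None of the 150-base windows of the longest Ces2g transcript occurred in another gene (0.0%), and 4.0% of its 50-base windows did. For Ces1g and Ces1f the shares of 50-base windows were 1.7% and 1.6%, and for Ces2c 42.2%. All 44 carboxylesterase values above 0 (of 120, 20 genes in 6 libraries) were whole numbers within 0.005, compared with 80.2% of all values above 0. No annotated gene overlaps Ces2g, Ces1g or Ces1f.

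**Figure D2:**
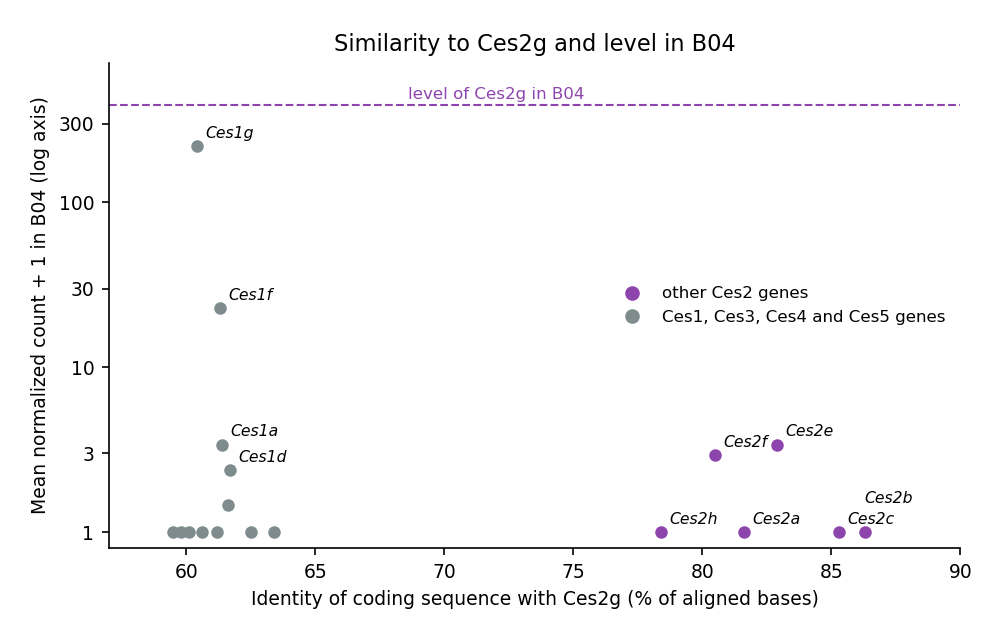
Identity of each carboxylesterase coding sequence with that of Ces2g (percent of aligned bases) against its mean normalized count plus 1 in B04 (log axis), with the level of Ces2g in B04 as a dashed line. The 6 other Ces2 genes, at 78.4% to 86.3% identity, are near the bottom, while Ces1g and Ces1f, the higher points, are at 60.4% and 61.3%.

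Among the Ces1 members, Ces1g (ENSMUSG00000057074, chr8:93302369-93337308), a liver esterase with a part in lipid metabolism, was higher in B04. Its normalized counts were 129 and 124 in the parental line, 210 and 229 in B04, and 144 and 176 in B64. The B04 libraries were above all others, and the B64 libraries lay between. The B04 level was 1.73-fold that of the parental line (95% interval 1.26 to 2.37, log2 fold change 0.79, SE 0.23, DESeq2 adjusted p = 0.0043). Among libraries of long fragments alone, B04 replicate A at 210 normalized counts was above the parental values of 129 and 124. The call was lost when any of the parental or B04 libraries was left out (adjusted p = 0.0606 to 0.136), and with a term for fragment-length class (log2 fold change 0.73, adjusted p = 0.153). B64 and the parental line did not differ in Ces1g beyond the test's threshold (1.26-fold, 95% interval 0.915 to 1.74, DESeq2 adjusted p = 0.406).

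Ces1f (ENSMUSG00000031725, chr8:93256236-93279747), a lipase of hepatic lipid stores, was higher in B64. Its normalized counts were 7.63 and 11.2 in the parental line, 18.2 and 25.4 in B04, and 54.4 and 48.4 in B64. The 3 lines did not overlap, and the order of levels was B64, B04 and parental. The B64 level was 5.44-fold that of the parental line (95% interval 2.39 to 12.4, log2 fold change 2.44, SE 0.61, DESeq2 adjusted p = 0.000784). The B04 level was 2.31-fold that of the parental line, and this difference did not pass the test (95% interval 0.988 to 5.4, DESeq2 adjusted p = 0.161). Among libraries of short fragments alone, B64 at 54.4 and 48.4 was above B04 replicate B at 25.4 normalized counts. No parental library had short fragments, so this does not bear on B64 against the parental line. The B64 call was lost without parental replicate A (log2 fold change 2.19, adjusted p = 0.0663), without B64 replicate A (2.36, adjusted p = 0.079) and with a term for fragment-length class (1.96, adjusted p = 0.792).

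Markers of other cell types also differed in B64. The sum of 8 enterocyte markers was 30.14 to 31.3 TPM in B64 and 11.43 to 14.89 in the other libraries, and 4 of the 8 (Vil1, Fabp2, Slc26a3 and Car1) were at 0 in every library. Most of that difference was Krt20, at 24.42 and 25.21 TPM in B64 and 9.01 to 9.62 elsewhere, while Aqp8 was at 3.47 and 3.65 TPM in B64 and 3.06 and 3.62 in B04. The leukocyte marker Cd68 was at 39.62 and 36.06 TPM in B64 and at 10.08 to 11.99 elsewhere, whereas Lyz2 was at most 0.56 TPM, Itgam at most 0.02 TPM and Cd3e at 0 in every library. The 6 hepatocyte markers summed to at most 0.81 TPM, with Alb and Ttr at 0. In the other direction, 4 fibroblast markers summed to 3.68 to 4.21 TPM in the parental line, 2.08 in B04 and 1.98 to 3.27 in B64. The part of such cells in the Ces1f difference was not tested.

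Ces1d (chr8:93166068-93197838), the triacylglycerol hydrolase of liver and fat, had 13 counts in B64 replicate B and 0 to 3 counts in the other 5 libraries, so the B64 libraries differed widely, and it carried no adjusted p. An annotated gene overlaps Ces1d on the same strand.

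Of all 9 members, 3 had no counts, 4 (with Ces2f) did not exceed the floor in any library, and 3 (Ces2g, Ces1g and Ces1f) had enough counts to be given an adjusted p. In B04 against the parental line, Ces1g and Ces1f were the members tested besides Ces2g, and Ces1g was called, higher. DESeq2 called 24.1% of the 13218 genes tested, 11.2% higher and 12.9% lower. In B64 against the parental line 1 of the 3 members tested was called (Ces1f, higher). Of the 13218 genes tested 16.3% were called, 8.87% higher and 7.45% lower. In B64 against B04 neither Ces1g nor Ces1f was called by DESeq2, and no other member besides Ces2g was tested. Of the 12855 genes tested 24.3% were called, 13.1% higher and 11.1% lower. In that comparison Ces1g (0.729-fold, 95% interval 0.533 to 0.997, adjusted p = 0.148) and Ces1f (2.36-fold, 1.11 to 5.01, adjusted p = 0.092) each had an unadjusted p under 0.05, and edgeR called both. Over all genes edgeR called 4201 there, beside 3118 with DESeq2. The share of all genes with an unadjusted p under 0.05 was not computed. The median log2 fold change over all genes tested was 0.0 in each comparison.

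As a whole, the family was at a low level, with a different leading gene in B04. Carboxylesterase TPM summed to 4.05 and 3.98 in parental cells, 14.14 and 15.13 in B04, and 6.1 and 7.62 in B64. Ces1g took 77.8% and 73.1% of this in the parental line, 37.0% and 37.9% in B04, and 57.7% and 55.8% in B64. Ces2g took 53.4% and 54.9% in B04, against 7.2% to 8.2% in the other libraries. Since Ces2g was chosen by its rise in B04, its lead there and its part of the higher B04 sum follow from that choice. Ces1g had 5.23 and 5.73 TPM in B04 and 3.15 and 2.91 TPM in parental cells. Ces1f took 27.7% and 19.6% in B64, against 5.4% to 8.5% elsewhere. The sum in B64 replicate B includes 1.14 TPM of Ces1d, from 13 counts, against 0 TPM in B64 replicate A. In B04 replicate A the RSEM length of Ces1f was 1255.66 bases against 1926 in the other libraries, which raises its TPM there for the same count.

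**Figure D3:**
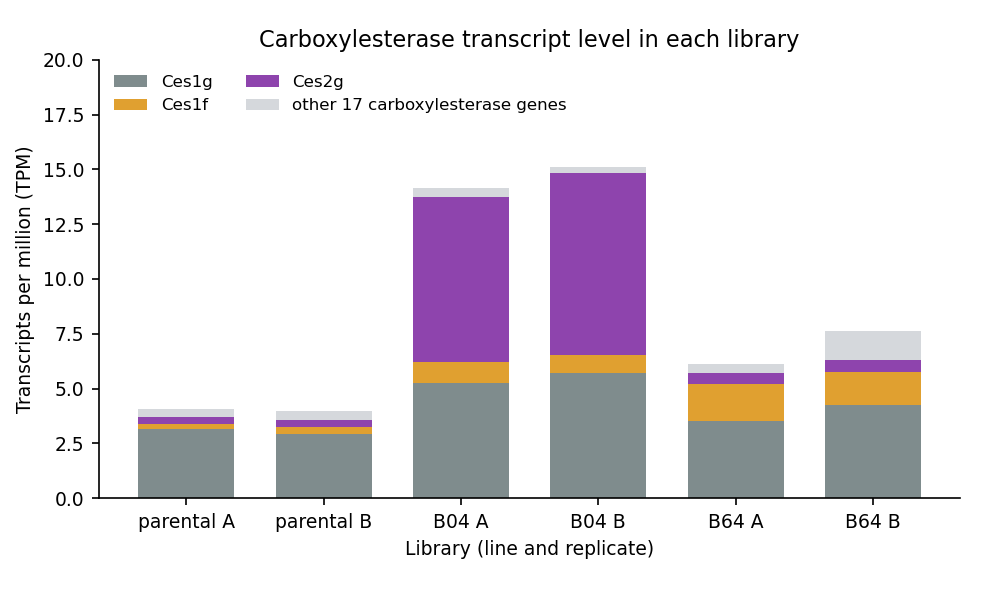
Carboxylesterase TPM in each library, stacked by gene from 0. The sum is 14.14 and 15.13 in B04, of which Ces2g is 53.4% and 54.9%, and Ces1g leads in the other 4 libraries. Ces2g was chosen by its rise in B04, so its lead there follows from that choice.

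The 11 carboxylesterase genes outside the member list were nearly silent. Of these, 7 had no counts in any library (Ces1b, Ces1c, Ces2d-ps, Ces2h, Ces3a, Ces3b and Ces4a). Ces1e, Ces1h and Ces5a had at most 1 count. Ces1a had 1 and 7 counts in the parental line, 3 and 2 in B04, and 6 and 1 in B64. None of these 11 carried an adjusted p.

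The rise of Ces2g in B04 was then set beside the genes around it. Within 300 kb of Ces2g lie 21 genes that are not carboxylesterases, of which 15 had at most 3 counts in every library and 5 were tested. In B04 against the parental line none of the 5 was called by DESeq2, where 24.1% of all genes were. Of the 5, 1 (B3gnt9, a glycosyltransferase, log2 fold change -0.39, adjusted p = 0.117) had an unadjusted p under 0.05, a share not computed over all genes. With edgeR 1 was called lower, and without its low-count filter 1 higher and 1 lower of 6. Over all genes edgeR called 4281, and 4683 without that filter, beside 3181 with DESeq2. Cbfb, a subunit of core-binding transcription factors 201.1 kb away, differed by 0.10 on the log2 scale (SE 0.07, DESeq2 adjusted p = 0.376). D230025D16Rik (-0.09), Tradd (0.28), an adaptor of the TNF receptor, and Fbxl8 (0.25), an F-box protein, did not pass the test either. The lincRNA Gm3830 had at most 4 counts and no adjusted p. In B64, Cbfb (-0.21, adjusted p = 0.0343) and B3gnt9 (-0.51, adjusted p = 0.042) were called lower (2 of 5, with 16.3% of all genes called). Each of these calls passed in only 4 of 17 alternatives, and was lost with a term for fragment-length class and when any library was left out. Thus no tested neighbor had a log2 fold change near the 4.63 of Ces2g in B04. However, all 5 tested neighbors lie 201.1 to 295.1 kb after Ces2g, and no gene within 300 kb before it was tested. The genes closest to Ces2g, Ces2f before and the pseudogene Gm5743 after, had at most 3 counts in any library.

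**Figure D4:**
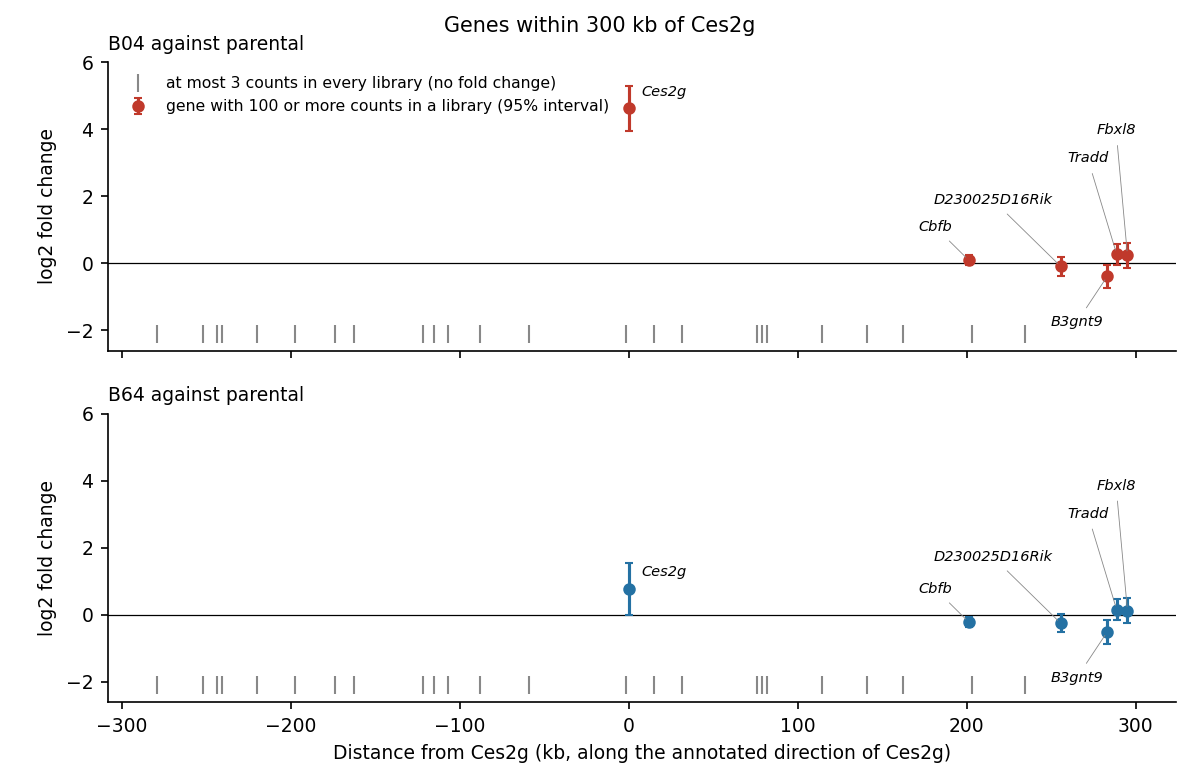
Log2 fold change, with 95% intervals, of genes within 300 kb of Ces2g that reached 100 counts in a library, by distance from Ces2g, in B04 (top) and B64 (bottom), with ticks for genes at 3 counts or fewer. Ces2e (up to 6 counts) and Gm3830 (up to 4) are left out, and the 5 neighbors lie between -0.51 and 0.28.

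The genes whose profile over the 6 libraries was most like that of Ces2g were Pax5, a B lymphocyte transcription factor (distance 1.12), Ccl9, a chemokine (2.06), Padi1, a peptidylarginine deiminase (2.21), Tgfb3, a TGF-beta ligand (2.33), and Ly6c1, a surface antigen (2.55). The measure was the Euclidean distance between centered log2(normalized count + 1) profiles, with a median of 4.92 over 10474 genes with a mean of at least 50. The profile matched is the one that Ces2g was chosen by, so a high level in B04 was fixed by the choice, and Pax5, Ccl9 and Padi1 reached that mean only through B04. Normalized counts of Pax5 were 10.5 and 5.61 in the parental line, 308 and 293 in B04, and 24.9 and 22.1 in B64. Those of Tgfb3 were 295 and 291, 1580 and 1500, and 350 and 418, in the same order. The B64 libraries of both genes were above their parental libraries, whereas Padi1 had 45.8 and 31.8 in the parental line and 35.1 and 24.2 in B64, which overlap.

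Other enzymes that cut esters or lipids were tested beside the carboxylesterases. Of 30 such genes, 9 did not exceed the floor and 21 were tested. In B04, 2 of the 21 were called by DESeq2, both lower, with a median log2 fold change of -0.09. With edgeR 2 were called higher and 4 lower of 19, where edgeR called 4281 of all genes and DESeq2 3181. The 2 DESeq2 calls were Nceh1, a cholesteryl ester hydrolase (log2 fold change -0.80, SE 0.10, DESeq2 adjusted p = 5.61e-13), and Abhd12, a lysophospholipase (-0.32, adjusted p = 0.0143). The Nceh1 call in B04 passed in 15 of 17 alternatives and was lost with limma on log2(TPM + 1) and on log2(TPM + 0.1). The Abhd12 call passed in 11 of 17 alternatives and was lost with a term for fragment-length class and without parental replicate A, parental replicate B or B04 replicate B. In B64, 2 of 21 were called, both higher, namely Esd, the S-formylglutathione hydrolase (0.46, adjusted p = 1.14e-12), and Nceh1 (0.35, adjusted p = 0.00466). The latter call passed in 9 of 17 alternatives and was lost with a term for fragment-length class and without any 1 of the parental or B64 libraries. The Esd call in B64 passed in 15 of 17 alternatives and was lost in the same 2 limma fits. The share called was 9.5% in each comparison with the parental line, beside 24.1% and 16.3% of all genes. In B64 against B04 5 of 20 were called (25.0%, beside 24.3%). Among those that did not pass the test, Pnpla2, the adipose triglyceride lipase, had a log2 fold change of 0.25 and Acot1, a thioesterase, 0.47 in B04.

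Among enzymes of drug metabolism, rises were found in both lines. Of 38 genes, 11 did not exceed the floor and 23 were tested, and in B04 10 were called higher and 1 lower (47.8% of those tested, with 24.1% of all genes called, 11.2% higher, median log2 fold change 0.46), and in B64 14 higher (60.9% of those tested, with 16.3% of all genes called, 8.87% higher, median 0.62). Ephx1, a microsomal epoxide hydrolase, rose by 1.32 in B04 and 0.82 in B64 on the log2 scale (DESeq2 adjusted p = 2.4e-81 and 2.59e-30). Gstm1, a glutathione transferase, rose by 1.77 and 1.13 (adjusted p = 1.75e-69 and 3.47e-27), and Aldh3a1, an aldehyde dehydrogenase, by 2.13 and 1.94 (adjusted p = 1.14e-61 and 4.47e-50). Mgst3 (1.29) and Gclm (0.57), of glutathione metabolism, rose in B04, and Gstp1 rose in B64 (0.67). Mgst3 was also called higher in B64 (0.57, DESeq2 adjusted p = 0.00681). That call passed in 12 of 17 alternatives and was lost with a term for fragment-length class. With a term for fragment-length class the higher calls were 10 in B04 and 8 in B64. Both comparisons share the parental libraries. The list was written with earlier results of these data known, so its shares called are a description and not a test of drug metabolism.

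Of 16 regulators of such enzymes, 8 were tested and 6 did not exceed the floor. The latter include Nr1i2 and Nr1i3, the receptors for foreign compounds PXR and CAR, and Hnf4a, a hepatic and intestinal transcription factor. In B04, Ahr, the aryl hydrocarbon receptor (1.24, DESeq2 adjusted p = 1.76e-21), Nr3c1, the glucocorticoid receptor (0.52, adjusted p = 6.81e-11), and Rxra (0.29, adjusted p = 0.00853) rose, and Arnt, the partner of AHR, fell by 0.28 on the log2 scale (adjusted p = 0.0058). The calls of Ahr and Nr3c1 held in all 17 alternatives, while that of Rxra passed in 12 and that of Arnt in 11. Both of these were lost with a term for fragment-length class, that of Rxra also without any 1 of the parental or B04 libraries, and that of Arnt without either parental library or B04 replicate A. Keap1 (0.22, adjusted p = 0.0601) did not pass the test. In B64, Nfe2l2, which encodes NRF2 (0.38, adjusted p = 1.94e-06), Ahr (0.35, adjusted p = 0.0416) and Nr3c1 (0.21, adjusted p = 0.0337) rose, and none of these 3 calls held with a term for fragment-length class. The call of Nfe2l2 passed in the other 16 of 17 alternatives, that of Nr3c1 in 7 and that of Ahr in 4, the last being lost when any library was left out and that of Nr3c1 when any but parental replicate A was. Cdx2, an intestinal transcription factor singled out after its values were seen, had 35 and 24 counts in the parental libraries and 0 in all B04 and B64 libraries, and did not pass the test (DESeq2 adjusted p = 0.304 and 0.375), although it passed in 9 of 16 alternatives in each line, edgeR among them.

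**Figure D5:**
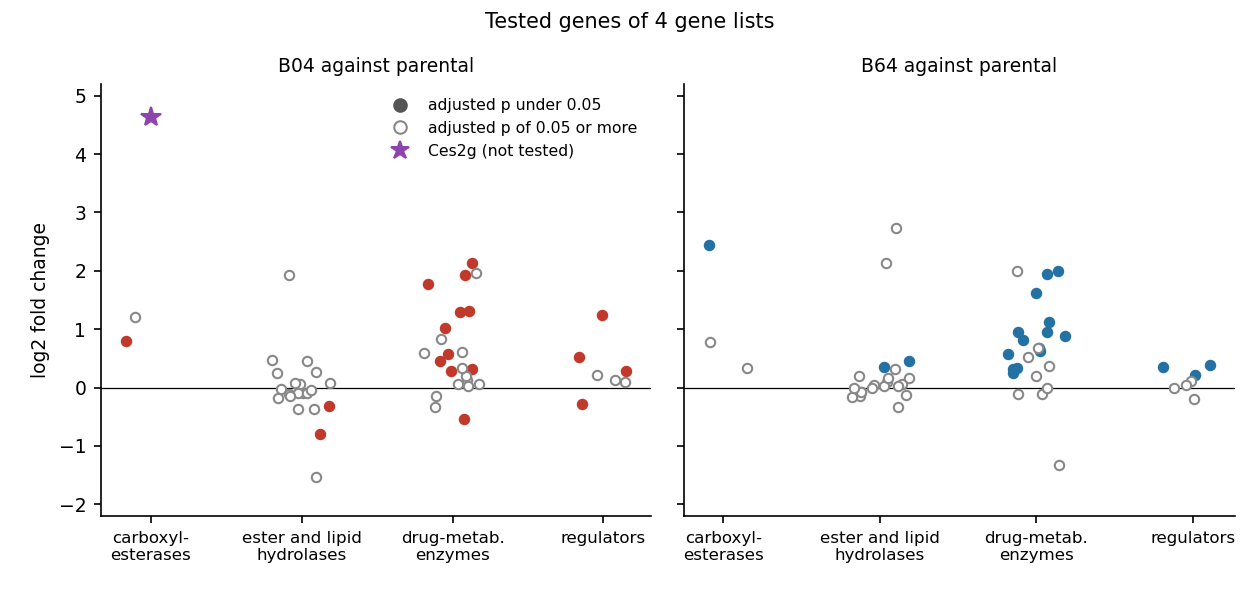
Log2 fold change of the tested genes of 4 lists in B04 (left) and B64 (right) against the parental line, filled where the DESeq2 adjusted p was under 0.05. Ces2g in B04 (star, 4.63) is a description, the drug-metabolising enzymes lie mostly above 0, and Cdx2 (-7.30 and -7.12) is off the scale.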

How the data were processed

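Poly(A) RNA from 2 libraries each of the parental line, B04 and B64 was sequenced as paired reads. Per the study's methods, the authors aligned reads to mm10 with STAR and quantified genes with RSEM. The deposited tables give expected counts, which RSEM estimates, and the authors' TPM values, scaled by effective length. The RSEM version is not given in the sources used here. FPKM was not used. Symbols were matched through GENCODE M21 for 99.7% of 53801 identifiers.

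After rounding, expected counts entered DESeq2 (1.42.0, under R 4.3.3), with all 6 libraries in 1 fit and line as its only term. Calls required a Benjamini-Hochberg adjusted p under 0.05 with independent filtering and no shrinkage. Normalized counts were divided by DESeq2 size factors. Alternatives used edgeR (4.0.16) and limma (3.58.1) on log2(TPM + 1) and log2(TPM + 0.1), among 19 settings. The tests were tried on simulated counts with known changes. Depth was 19409204 to 23472012 counts per library. Floors of 3 counts cover counting error only. The replicate letters come from titles that give no reason for them.

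The members and gene lists were chosen with earlier results of these data known. Named genes were all carboxylesterases, genes with a DESeq2 p within 300 kb of Ces2g, the 5 nearest profiles, and up to 5 (B04) and 3 (B64) genes per list by adjusted p. Not every gene that this rule allows is named. Cdx2 falls outside this rule.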

Additional observations from a re-analysis of the deposited data

How the results depend on the processing

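No fold change of Ces2g, Ces1g or Ces1f changed sign under 17 alternatives each. In B04 against the parental line the 1 member called became 2 with edgeR, with or without its filter (Ces1f added, log2 fold change 1.2, adjusted p = 0.0453 with the filter), and 0 with a term for fragment-length class, and it was 0 to 1 when single libraries were left out. On log2(TPM + 1) the 1 member called was Ces1f (adjusted p = 0.0496) in place of Ces1g (0.0607). In B64 against the parental line the 1 member called became 0 with the fragment-length term and was 0 to 1 when single libraries were left out. In B64 against B04 the count of 0 became 2 with edgeR, with or without its filter, and 1 after keeping genes with a mean of at least 10 or with an adjusted p under 0.1 (Ces1f in both), and it stayed 0 when single libraries were left out. The log2 fold change of Ces1g in B04 ranged from 0.68 to 0.85 over 17 alternatives. Its call was lost with the fragment-length term, on log2(TPM + 1) and without any 1 of the parental or B04 libraries. On log2(TPM + 0.1) it was still called, with a limma adjusted p that rounds to 0.05. The log2 fold change of Ces1f in B64 ranged from 1.01 to 2.75 and passed in 14 of 17. That of Ces2g in B04 was 2.77 on log2(TPM + 1) and 4.31 on log2(TPM + 0.1), where the pseudocount alone lowers it, and 4.75 at most. Over all genes, calls ranged from 1323 to 4683 in B04 (3181 as reported), 340 to 3529 in B64 (2157) and 1376 to 4478 in B64 against B04 (3118), with the lowest on log2(TPM + 1), the fragment-length term and log2(TPM + 0.1) and the highest with unfiltered edgeR. Higher calls among drug-metabolising enzymes ranged from 9 to 12 in B04 and 8 to 19 in B64. Libraries with the same letter deviated together only weakly (correlations of 0.11, 0.01 and -0.05 over 11996 genes), so the letters were not taken to pair them. With the letter as a replicate block, Ces1g in B04 (0.79, DESeq2 adjusted p = 0.0196) and Ces1f in B64 (2.47, adjusted p = 0.00528) were still called, and no member's call changed. The depth limits the 6 members with at most 13 counts in any library, for which changes were not detectable. Fits without 1 library leave a line with 1 library, which is assumed to vary like the other lines.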
